A study of Danio rerio with 55 samples.

Results

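The genes ghrhrb (ENSDARG00000053708), galr1b (ENSDARG00000079165) and prlrb (ENSDARG00000045955) encode receptors for hormones and neuropeptides, and they are 3 of the 32266 genes in the zebrafish count files. They were picked because their RNA had been seen at much higher levels in early MZezh2 mutant embryos than in wild-type embryos. The values that picked them are the genotype differences at 0 and 3.3 hours post-fertilization (hpf), which are therefore given as a description with no test. The genotype difference at 24 hpf played no part in the choice and was tested.

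The series compared whole zebrafish embryos of a TU/TLF mixed background by RNA-seq. There were 5 wild-type libraries of 0 hpf embryos, 5 of 3.3 hpf and 6 of 24 hpf, and 6, 7 and 7 mutant libraries of these ages. MZezh2 mutants lacked both the maternal and the zygotic product of ezh2: they carried the nonsense allele hu5670 and came from crosses between fish whose transplanted germ line was mutant. Because only the germ line of the mothers was replaced, the eggs had no Ezh2 of their own while the ovary around them was largely wild type. Wild-type embryos came from germline wild-type siblings made in the same transplantations, and each library was made from a pool of embryos of the first generation. The study's methods call the libraries of a group biological replicates. Whether each came from a cross of its own is not given in the sources used here, and the p-values measure the spread between these libraries.

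Ezh2 is the enzyme of Polycomb repressive complex 2 that trimethylates lysine 27 of histone H3, a mark of silenced developmental genes. The growth hormone-releasing hormone receptor, encoded by ghrhrb, is a class B G protein-coupled receptor that raises cAMP through a stimulatory G protein and is known from the growth hormone cells of the mammalian pituitary. Galanin receptor 1, encoded by galr1b, is a class A G protein-coupled receptor for the neuropeptide galanin and lowers cAMP through an inhibitory G protein. The prolactin receptor, encoded by prlrb, is a class I cytokine receptor that signals through Jak2 and Stat5 and in fish is known from ion-transporting tissues such as kidney and gill. RNA present at 0 hpf, in the newly laid embryo, is maternal, and at 3.3 hpf the embryo has begun to transcribe its own genome.

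The libraries held 2736282 to 24041447 counts on genes. The targeted gene was read first, as a check of the labels. Levels are given as CPM, a gene's counts divided by the scaled total of its library and put on the usual common scale, with no correction for gene length. In wild-type libraries ezh2 stood at 200 to 388 CPM at 0 hpf, 252 to 492 CPM at 3.3 hpf and 117 to 236 CPM at 24 hpf. The libraries labelled MZezh2 mutant fell into 2 sets. At 0 hpf, mutant replicates 1, 2 and 4 had 2.75 to 3.91 CPM, but replicates 3, 5 and 6 had 254 to 345 CPM, inside the wild-type range. At 3.3 hpf, replicates 1, 2, 4 and 5 had 3.76 to 5.66 CPM and replicates 3, 6 and 7 had 180 to 237 CPM. At 24 hpf, replicates 1 to 4 had 37.0 to 46.5 CPM and replicates 5, 6 and 7 had 114 to 137 CPM.

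In the mutant libraries with the high values, 48.0 to 50.2% of the stranded ezh2 counts at 0 hpf and 48.0 to 50.0% at 3.3 hpf lay on the antisense strand, and 30.8 to 41.6% at 24 hpf. Wild-type libraries had antisense ezh2 counts too: up to 19.2% at 0 hpf, 26.4% at 3.3 hpf and 22.0% at 24 hpf. The other mutant libraries had up to 24.1%, 16.5% and 9.66%. In wild-type replicates 1 and 2 the antisense share was at most 0.0777% at 0 and 3.3 hpf and 1.30% at 24 hpf. In mutant replicates 1 and 2 it was 0% at the early stages and up to 7.43% at 24 hpf. Over all genes, that strand held 1.48 to 18.8% of the stranded counts in a library. The excess of sense over antisense ezh2 counts in the mutant libraries with the high values was 96, 33 and -17 at 0 hpf. It was 85, -1 and 48 in those of 3.3 hpf and 167, 524 and 270 in those of 24 hpf. In wild-type libraries the excess was 684 to 5138 counts. In CPM at 0 hpf it was -1.53 to 9.90 in the high mutant libraries, 1.77 to 3.91 in the other mutant libraries and 199 to 246 in wild type. At 3.3 hpf, in the same order, it was -0.097 to 9.61, 3.76 to 5.11 and 232 to 288 CPM. At 24 hpf it was 22.9 to 44.1, 29.8 to 40.1 and 104.5 to 157 CPM. The source of the antisense counts was not tested, and the 3 receptor genes are given below with and without the mutant libraries above 30% antisense ezh2, a limit set after these values were seen.

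**Figure D1:**
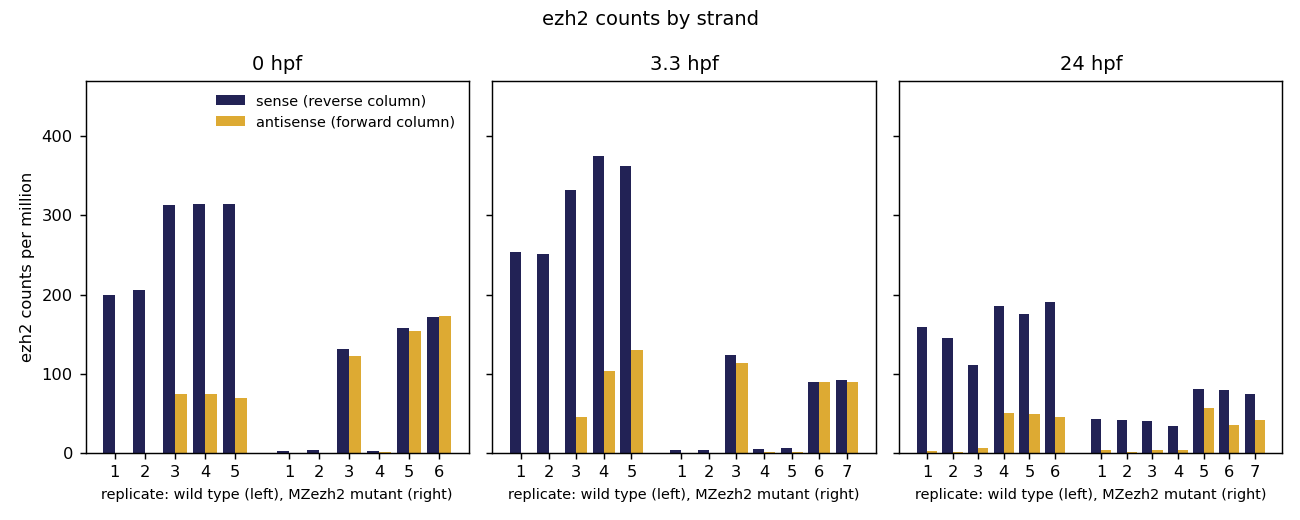
Level of ezh2, in CPM, on the sense strand (dark bars) and the antisense strand (yellow bars) in every library at 0, 3.3 and 24 hpf, with wild-type libraries on the left of each panel and MZezh2 mutant libraries on the right, named by replicate number. At 0 and 3.3 hpf the mutant libraries either have nearly no ezh2 counts or have them in nearly equal numbers on both strands.

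The growth hormone-releasing hormone receptor gene ghrhrb had hardly any counts in wild-type embryos at 0 hpf and had counts in every mutant library. At 0 hpf the 5 wild-type libraries had 2, 0, 1, 3 and 2 counts of ghrhrb. The 6 mutant libraries had between 11 and 111 counts, at 1.13 CPM in the lowest, a median of 2.31 CPM and 4.52 CPM in the highest. All 6 mutant libraries lay above every wild-type library, and the lowest was 5.36 times the highest wild-type value. The group means were 0.127 ± 0.083 CPM (SD, n = 5) in wild type and 2.54 ± 1.17 CPM (SD, n = 6) in the mutants. Pooled over libraries, the ratio of mutant to wild type was 26.8, with an exact 95% interval of 13.4 to 62.8 that covers counting error only.

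At 3.3 hpf ghrhrb had 0 counts in all 5 wild-type libraries, where 3 counts over the group would be 0.0446 CPM. The 7 mutant libraries had 5 to 109 counts, with 0.565 CPM in the lowest, a median of 1.05 CPM and 4.91 CPM in the highest. Against the limit of 3 counts, the pooled mutant level was at least 40.2-fold higher. One library stood far above the rest: mutant replicate 2 held 109 of the 195 mutant counts. Without it, the mutant mean of 1.58 ± 1.52 CPM (SD, n = 7) became 1.03 ± 0.44 CPM and the bound became at least 22.2-fold. Mutant replicate 2 was also the highest mutant library for 36.8% of the 994 genes called higher in mutants at that stage and for 37.9% of the 999 called at 0 hpf, and its part in the ghrhrb value beyond these values was not tested.

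The galanin receptor gene galr1b was likewise at or near 0 in early wild-type embryos. At 0 hpf galr1b had 0 counts in all 5 wild-type libraries, which allows up to 0.0386 CPM over the group at 3 counts. The 6 mutant libraries had 11 to 55 counts, from 0.915 CPM in replicate 1 through a median of 1.28 CPM to 2.24 CPM in replicate 2. The mutant mean was 1.46 ± 0.54 CPM (SD, n = 6), and the pooled mutant level was at least 38.6-fold higher than the limit in wild type. Its mutant libraries were less spread than those of ghrhrb, with a coefficient of variation of 36.6% against 45.8%.

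At 3.3 hpf galr1b had 2 counts in wild-type replicate 3 and 0 in the other 4 wild-type libraries. Both of these counts lay on the antisense strand, so no sense count of galr1b was found in wild-type embryos at either early stage. The 7 mutant libraries had 7 to 47 counts, with 0.791 CPM in the lowest, a median of 1.31 CPM and 2.42 CPM in the highest, and every one lay above wild type. The mutant mean was 1.49 ± 0.59 CPM (SD, n = 7), within the spread of the mean at 0 hpf. The pooled ratio was 50.4, with an exact 95% interval of 13.7 to 419 for counting error. The fitted log2 fold change, 5.28 (SE 0.83) in the edgeR model, became 7.52 without wild-type replicate 3.

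The prolactin receptor gene prlrb was close to 0 in early wild-type embryos. At 0 hpf it had 2 counts in wild-type replicate 2 and 0 in the other 4 wild-type libraries. The 6 mutant libraries had 20 to 162 counts, with 2.06 CPM in the lowest, a median of 3.32 CPM and 6.77 CPM in the highest. The lowest mutant library was 23.9 times the only wild-type library with counts. The mutant mean was 4.17 ± 2.00 CPM (SD, n = 6), and the pooled ratio was 177 with an exact 95% interval of 48.5 to 1463 for counting error. Replicates 2 and 6 stood together at 6.60 and 6.77 CPM, and the other 4 mutant libraries lay between 2.06 and 3.41 CPM. The fitted log2 fold change of 7.08 (SE 0.78) became 8.90 without wild-type replicate 2.

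At 3.3 hpf every wild-type library had counts of prlrb: 1, 1, 4, 1 and 1. The wild-type mean was 0.138 ± 0.121 CPM (SD, n = 5), against 3.13 ± 1.30 CPM (SD, n = 7) in the mutants. The mutant libraries had 20 to 106 counts, with 1.24 CPM in the lowest, a median of 2.62 CPM and 4.78 CPM in the highest. The groups did not overlap, and the lowest mutant library was 3.60 times the highest wild-type library. The pooled ratio was 28.0, with an exact 95% interval of 14.1 to 65.4 for counting error. The fitted log2 fold change of 4.54 (SE 0.60) became 5.27 without wild-type replicate 3, which held 4 of the 8 wild-type counts.

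All 3 genes met the call rule at both early stages, an adjusted p below 0.05 with a log2 fold change of at least 1, as did 6.06% of the 16489 genes tested at 0 hpf and 5.88% of the 16897 tested at 3.3 hpf for higher levels in mutants. Since the genes were chosen on this contrast, nothing is read from that count. Every mutant library lay above every wild-type library for all 3 genes at both stages, as for 5.72% of tested genes at 0 hpf and 5.06% at 3.3 hpf. Of the stranded counts over all 36 libraries, 96.9% of those of ghrhrb, 93.5% of those of galr1b and 96.6% of those of prlrb were on the sense strand.

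The early levels overlapped between both sets of mutant libraries. At 0 hpf, mutant replicates 3, 5 and 6, above 30% antisense ezh2, averaged 2.16 ± 0.99 CPM of ghrhrb (SD, n = 3), and replicates 1, 2 and 4 averaged 2.92 ± 1.41 CPM (SD, n = 3). The means of galr1b were 1.40 and 1.52 CPM in the same order, and those of prlrb were 4.02 and 4.32 CPM. At 3.3 hpf the means were 1.21 and 1.86 CPM for ghrhrb, 1.51 and 1.48 CPM for galr1b, and 3.17 and 3.10 CPM for prlrb, in replicates 3, 6 and 7 and in replicates 1, 2, 4 and 5. The ranges of the sets overlapped for each gene at both stages. Every library of both sets lay above wild type. With the libraries above 30% antisense ezh2 left out, the fitted log2 fold changes were 4.66 for ghrhrb and 7.17 for prlrb at 0 hpf, and 5.30 for galr1b and 4.53 for prlrb at 3.3 hpf.

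**Figure D2:**
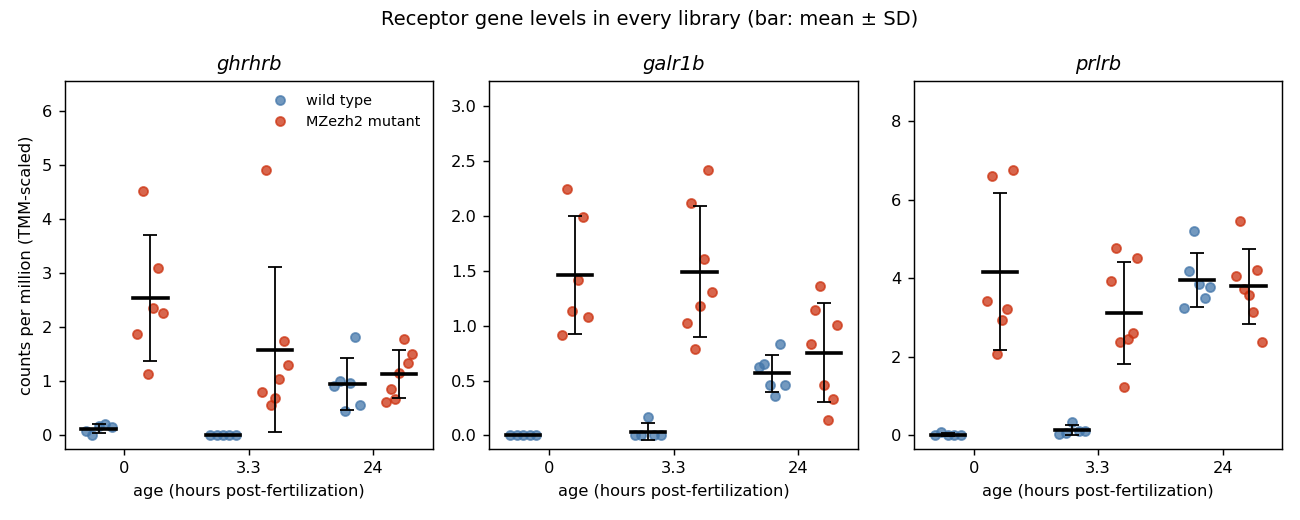
Level of ghrhrb, galr1b and prlrb in every library, in CPM scaled by TMM over all libraries, by age, with wild type in blue and MZezh2 mutants in red. Points are libraries, the thick line is the group mean and the error bar is 1 SD. At 0 and 3.3 hpf all mutant libraries lie above all wild-type libraries, and at 24 hpf the genotypes overlap for each gene.

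At 24 hpf the wild-type embryos had RNA of all 3 receptor genes themselves, and the genotypes overlapped. In RNA from whole embryos, fewer expressing cells and less RNA per cell cannot be told apart. The gene ghrhrb ranged from 0.458 CPM through a median of 0.938 CPM to 1.81 CPM in the 6 wild-type libraries, and from 0.613 CPM through 1.15 CPM to 1.78 CPM in the 7 mutant libraries. The means were 0.954 ± 0.477 CPM (SD, n = 6) and 1.13 ± 0.44 CPM (SD, n = 7). For galr1b the wild-type libraries ranged from 0.362 CPM through 0.542 CPM to 0.838 CPM, and the mutant libraries, from 0.137 CPM through 0.836 CPM to 1.36 CPM, lay on both sides of them. Its means were 0.565 ± 0.173 CPM (SD, n = 6) and 0.754 ± 0.453 CPM (SD, n = 7). For prlrb the wild-type libraries ranged from 3.24 CPM through 3.82 CPM to 5.19 CPM and the mutant libraries from 2.38 CPM through 3.74 CPM to 5.45 CPM. Its means were 3.96 ± 0.69 CPM (SD, n = 6) and 3.80 ± 0.95 CPM (SD, n = 7).

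None of the 3 genes passed the test at 24 hpf, where 0.223% of the 18806 tested genes were called higher and 0.101% lower in mutants, and none had an unadjusted p below 0.05. For prlrb, edgeR's quasi-likelihood test gave a log2 fold change of -0.055 (95% interval -0.52 to 0.41, adjusted p = 1.00). The filter on low counts removed ghrhrb and galr1b at this stage, so their values come from a fit without it. There ghrhrb had a log2 fold change of 0.24 (95% interval -0.54 to 1.03, edgeR adjusted p = 0.993) and galr1b 0.36 (95% interval -0.64 to 1.35, edgeR adjusted p = 0.988). An exact two-sided permutation test over the libraries gave p = 0.439 for ghrhrb, 0.527 for galr1b and 0.668 for prlrb. The intervals leave room for a difference in either direction, and the one for galr1b is the widest of the 3.

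The sign of the 24 hpf difference depended on the libraries used for ghrhrb and prlrb. That of galr1b was positive in all 23 alternatives run, the mean difference of the permutation test included, at 0.15 or more. Mutant replicates 5, 6 and 7, above 30% antisense ezh2, had 1.35 to 1.78 CPM of ghrhrb, above the 0.613 to 1.15 CPM of the other 4 mutant libraries. Without them the log2 fold change of ghrhrb was -0.17 (edgeR adjusted p = 0.933), that of prlrb 0.12 (adjusted p = 0.860) and that of galr1b 0.70 (adjusted p = 0.678). No alternative gave a call for any of the 3 genes at 24 hpf.

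Across the 6 groups, the order of levels differed between the genes. For ghrhrb it was mutant at 0 hpf (2.54 CPM), mutant at 3.3 hpf (1.58 CPM), mutant at 24 hpf (1.13 CPM), wild type at 24 hpf (0.954 CPM), wild type at 0 hpf (0.127 CPM) and wild type at 3.3 hpf, with no counts. Only the step from wild type at 24 hpf to wild type at 0 hpf separated neighbours in this order without overlap. In 5 of the 6 mutant libraries at 0 hpf, ghrhrb exceeded every library of wild-type embryos at 24 hpf, and its mean was 2.66 times theirs. At 3.3 hpf only mutant replicate 2 did so. The mean of that stage was 1.66 times that of wild type at 24 hpf with this library, and without it was 1.03 CPM against 0.954 CPM.

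For galr1b the order was mutant at 3.3 hpf (1.49 CPM), mutant at 0 hpf (1.46 CPM), mutant at 24 hpf (0.754 CPM), wild type at 24 hpf (0.565 CPM), wild type at 3.3 hpf (0.0346 CPM) and wild type at 0 hpf, with no counts. Neighbours overlapped except wild type at 24 hpf and at 3.3 hpf. All 6 mutant libraries at 0 hpf exceeded every wild-type library at 24 hpf, and their mean was 2.59 times theirs. At 3.3 hpf, 6 of the 7 mutant libraries did so, with a mean 2.64 times that of wild type at 24 hpf.

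The early mutant level of prlrb overlapped the later wild-type level at both stages. The order was mutant at 0 hpf (4.17 CPM), wild type at 24 hpf (3.96 CPM), mutant at 24 hpf (3.80 CPM), mutant at 3.3 hpf (3.13 CPM), wild type at 3.3 hpf (0.138 CPM) and wild type at 0 hpf (0.0173 CPM). The first 4 groups overlapped, and a gap lay between mutant and wild type at 3.3 hpf. Of the 6 mutant libraries at 0 hpf, 2 lay above and 3 below every wild-type library at 24 hpf. At 3.3 hpf none of the 7 lay above them and 4 lay below, with a mean 0.790 times theirs. From 0 to 3.3 hpf the mutant mean of prlrb went to 0.750 times its value, that of ghrhrb to 0.623 times and that of galr1b to 1.02 times, with overlapping ranges in each case.

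Each receptor gene has a second copy in zebrafish. At the early stages these copies had low counts in wild type, and for each of them some mutant libraries overlapped wild type at both stages. The copy ghrhra had 7 counts over the wild-type libraries and 25 over the mutant libraries at 0 hpf, and 9 and 14 at 3.3 hpf. The other galanin receptor 1 gene, listed under the symbol GALR1, had 0 and 10 counts at 0 hpf and 1 and 12 at 3.3 hpf, and reached at most 0.361 CPM in any early mutant library. The other prolactin receptor gene, listed as PRLR, had 12 and 85 counts at 0 hpf and 3 and 110 at 3.3 hpf. Its mutant libraries ranged at 0 hpf from 0.103 CPM through a median of 0.253 CPM to 2.89 CPM, and 2 of the 6 lay above wild type, which reached 0.282 CPM. At 3.3 hpf 6 of the 7 mutant libraries lay above wild type, which reached 0.119 CPM, with a mutant median of 0.509 CPM and 3.16 CPM in replicate 2, the highest. All 3 copies fell below the count filter at the early stages and were not tested there with edgeR, while DESeq2, run without that filter, called 1 of them at 3.3 hpf. At 24 hpf PRLR was at 10.1 ± 2.1 CPM (SD, n = 6) in wild type and 11.6 ± 1.7 CPM (SD, n = 7) in mutants, with a log2 fold change of 0.22 (SE 0.17, edgeR adjusted p = 0.950). Only uniquely mapped reads were counted, so reads shared by a pair of copies are missing from both.

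No ligand gene had more than 80 counts over a group at the early stages, and galanin, galn, had no matched identifier. Growth hormone-releasing hormone, ghrh, had 0 counts in wild type and 3 in mutants at 0 hpf, and 6 and 11 at 3.3 hpf. Prolactin, prl, was at 1.04 CPM in wild type and 0.885 CPM in mutants at 0 hpf, and at 0.485 and 0.712 CPM at 3.3 hpf. Spexin, spx, a peptide related to galanin that acts on other galanin receptors, had 6 counts in each genotype at 0 hpf. The ligand list also held genes of ligands of other listed receptors, among them ADCYAP1, adcyap1b, VIP and gh1. In wild type and mutants, ADCYAP1 had 5 and 27 counts at 0 hpf and 6 and 44 at 3.3 hpf. For adcyap1b these were 28 and 50, then 14 and 73, and for VIP 4 and 8, then 1 and 13. The mean of gh1 went the other way at 3.3 hpf, at 0.381 and 0.229 CPM, and smtlb had 2 and 1 counts at 0 hpf. Of 10 ligand genes, 1 passed the filter at 0 hpf, none at 3.3 hpf and 3 at 24 hpf. No ligand gene was called by edgeR or DESeq2 at any stage, and none had an unadjusted edgeR p below 0.05.

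Other genes of the receptor families and of their signalling were taken from a list of 75 gene identifiers, paralogues and ligands included. The list was chosen with earlier results of these data known. Of the 75 genes, 36 passed the filter at 0 hpf, and 5 were called higher and 0 lower in mutants. Of all tested genes, 6.06% and 0.17% were. At 3.3 hpf 35 passed, with 8 higher and 0 lower, beside 5.88% and 0.178% of all tested genes, and at 24 hpf 41 passed, with 0 called by edgeR or DESeq2 and 3 with an unadjusted edgeR p below 0.05. The median log2 fold change of those that passed was 0.49 at 0 hpf, 0.54 at 3.3 hpf and 0.05 at 24 hpf, beside -0.025, -0.066 and -0.013 over all tested genes. A gene that is high in mutants alone can pass the filter through that group, so these counts are a description. An unadjusted edgeR p below 0.05 was found for 2977 of all 16489 tested genes at 0 hpf. It was found for 2938 of 16897 at 3.3 hpf and 1344 of 18806 at 24 hpf. DESeq2 called 2078 of 27383 genes higher in mutants at 0 hpf, 1878 of 28640 at 3.3 hpf and 78 of 29629 at 24 hpf.

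The inhibitory G protein alpha subunit gene gnai1, of the protein class through which galanin receptor 1 acts, had the largest fitted fold change among those called. At 0 hpf it had 4 counts over the wild-type and 429 over the mutant libraries, and its mutant mean was 5.16 ± 1.19 CPM (SD, n = 6). Its fitted log2 fold change was 6.43 (SE 0.66) at 0 hpf and 6.03 (SE 0.60) at 3.3 hpf, a description since gnai1 passed the filter through its mutant libraries. At 24 hpf, where both genotypes had it, the log2 fold change was 0.09 (SE 0.15, edgeR adjusted p = 1.00). By then gnai1 stood at 54.3 ± 13.2 CPM (SD, n = 6) in wild-type embryos and 57.6 ± 5.8 CPM (SD, n = 7) in mutants. The other 13 genes of the signalling list, among them the prolactin receptor's kinase jak2a and its target stat5a, were not called at 0 or 3.3 hpf by edgeR. Of all 14 genes, gnai1 included, 4 higher and 1 lower in mutants had an unadjusted edgeR p below 0.05 at 0 hpf. At 3.3 hpf 3 and 1 did. Of all tested genes, 2977 of 16489 did at 0 hpf and 2938 of 16897 at 3.3 hpf. DESeq2 called 2 higher at 0 hpf, 1 at 3.3 hpf and 0 lower. GNAI3, another inhibitory subunit gene, had a log2 fold change of 1.225 (edgeR adjusted p = 0.0528) at 0 hpf. At 3.3 hpf it had 0.95 (adjusted p = 0.0903). The genes listed as GNAI2 had -0.17 and -0.13 at 0 hpf. The log2 fold change of jak2a was 0.025 at 0 hpf and -0.078 at 3.3 hpf, and that of stat5a was 0.48 and 0.33. At 0 hpf SOCS2 had 1.93 (edgeR adjusted p = 0.190), stat5b 0.65 (0.229), CISH -0.80 (0.241) and JAK2 -0.10. At 3.3 hpf these genes had 0.93, 0.54, -0.61 and -0.017.

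Among the class I cytokine receptors, to which prlrb belongs, 3 of 7 tested genes were called higher in mutants at 0 hpf. At 3.3 hpf 3 of 8 were, beside 6.06% and 5.88% of all tested genes at 0 and 3.3 hpf. Of the 11 listed genes only the tested ones enter these shares, and a gene low in wild type can pass the filter through its mutant libraries. The early values of this list are therefore a description. The leptin receptor gene lepr rose from 0.759 ± 0.578 CPM (SD, n = 5) to 9.16 ± 3.61 CPM (SD, n = 6) at 0 hpf. Its log2 fold change was 3.74 (SE 0.52) at 0 hpf and 3.44 at 3.3 hpf. The gene cntfr, of the ciliary neurotrophic factor receptor, rose by 2.49 at both stages, and crlf1a, of a soluble cytokine receptor-like factor, by 1.47 and 1.31. The growth hormone receptor genes did not pass in edgeR: ghrb had a log2 fold change of 0.98 (edgeR adjusted p = 0.220) at 0 hpf, and ghra 2.87 (adjusted p = 0.0743) at 3.3 hpf. DESeq2 called 5 genes of this list higher and 0 lower in mutants at each early stage. Over all genes it called 2078 of 27383 higher at 0 hpf and 1878 of 28640 at 3.3 hpf. Of the 9 tested at 24 hpf, none was called by edgeR or DESeq2. An unadjusted edgeR p below 0.05 was found for 1 of them, and for 1344 of all 18806 tested genes.

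Among the class B receptors, to which ghrhrb belongs, 1 of 12 tested genes was called higher in mutants at 0 hpf, a share near the 6.06% of all tested genes. Of these 12, 5 had an unadjusted edgeR p below 0.05, all higher in mutants, and the median log2 fold change was 1.10. Such a p, in either direction, was found for 2977 of all 16489 tested genes. At 3.3 hpf 4 of 10 were called, beside 5.88%. DESeq2 called 3 at 0 hpf and 6 at 3.3 hpf, where it called 2078 of 27383 and 1878 of 28640 genes higher over all. A gene low in wild type can pass the filter through its mutant libraries, so these counts are a description. Of the 10 class B genes tested at 24 hpf, 0 were called by edgeR or DESeq2. An unadjusted edgeR p below 0.05 was found for 2 of them, higher in mutants, and for 1344 of all 18806 tested genes. The gene of corticotropin-releasing hormone receptor 1, CRHR1, rose by 1.32 (SE 0.36, edgeR adjusted p = 0.0426) at 0 hpf and 1.65 (SE 0.37, adjusted p = 0.0141) at 3.3 hpf on the log2 scale. At 24 hpf CRHR1 had 0.86 (SE 0.24, edgeR adjusted p = 0.240) and was not called. At 3.3 hpf a parathyroid hormone 2 receptor gene listed as PTH2R (ENSDARG00000021186) rose by 3.30, the calcitonin receptor gene CALCR by 2.77 and the calcitonin receptor-like gene CALCRL by 1.55. A further gene listed as PTH2R (ENSDARG00000006678) had a log2 fold change of 0.23 at that stage and was not called. The genes ghrhrl and ghrhr2, singled out after their values were seen for their names, had between 16 and 37 counts per group at 0 and 3.3 hpf and were not tested. Their mean levels there were 0.283 to 0.421 CPM in both genotypes. Of the 21 class A neuropeptide receptor genes, the class of galr1b, 2 were tested at 0 hpf and 3 at 3.3 hpf, and none was called by edgeR or had an unadjusted p below 0.05, while DESeq2 called 1 at 3.3 hpf.

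Without the mutant libraries above 30% antisense ezh2, gnai1, lepr, cntfr and crlf1a were still called at both early stages, with log2 fold changes of 6.29, 4.13, 2.98 and 1.50 at 0 hpf. The class B receptor genes were no longer called with these fewer libraries, at fold changes close to those above. CRHR1 had a log2 fold change of 1.48 (edgeR adjusted p = 0.0805) at 0 hpf and 1.70 (adjusted p = 0.0722) at 3.3 hpf. At 3.3 hpf CALCRL had 1.46 (edgeR adjusted p = 0.0523) and PTH2R (ENSDARG00000021186) 3.28 (adjusted p = 0.0581), and CALCR fell below the filter.

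**Figure D3:**
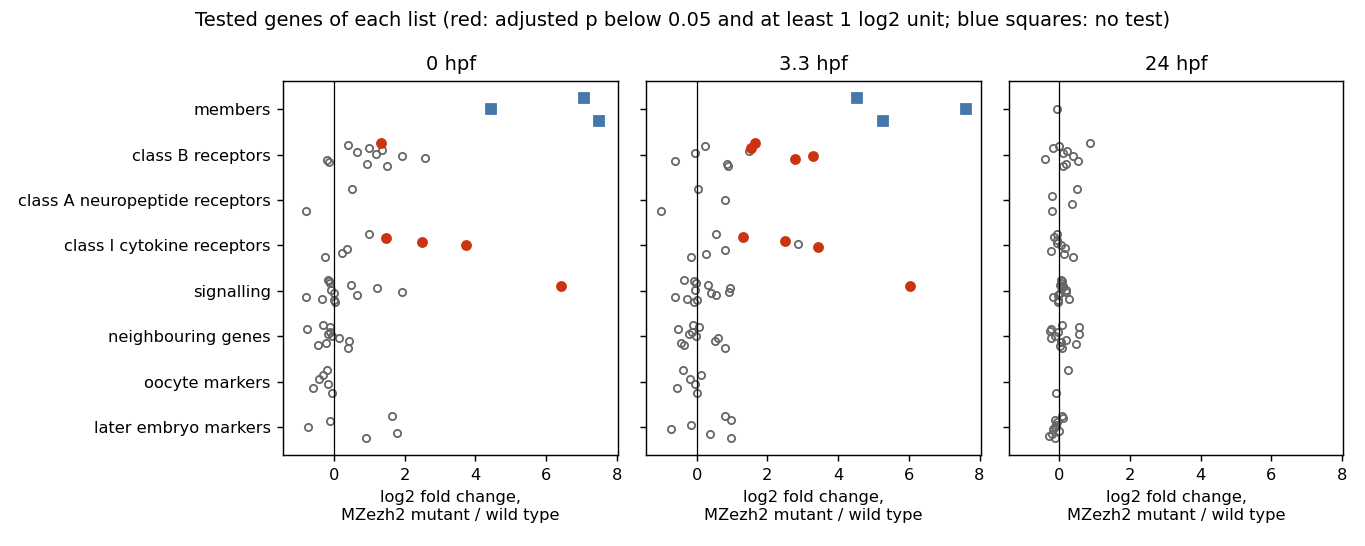
Fitted log2 fold change between MZezh2 mutant and wild-type embryos for every tested gene of each list drawn, at 0, 3.3 and 24 hpf. The paralogue, ligand, follicle cell and pituitary lists are not drawn, nor are ghrhrb and galr1b at 24 hpf, which the filter removed. Each mark is a gene, red marks passed the call rule, open marks did not, and blue squares are the 3 receptor genes at the stages that picked them, where a fold against a group with no counts depends on the model and is no measured ratio. Red marks appear among the class B receptors, the cytokine receptors and the signalling genes at 0 and 3.3 hpf, and none appears at 24 hpf.

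None of the tested genes lying near the 3 receptor genes was called at any stage by edgeR or DESeq2. In the order of protein-coding genes in the RefSeq annotation of the assembly GRCz12tu, 18 neighbours could be matched, 3 on each side of each gene, and 11 of them were tested at 0 and at 3.3 hpf. The gene directly after ghrhrb was not among those matched, and the 3 after galr1b, ctrb.1, ctrb.2 and ctrb.3, were not tested at any stage. At 0 hpf GLDC, 3 genes from prlrb and singled out after its values were seen, had an edgeR adjusted p of 0.0193 with a log2 fold change of -0.75, short of the fold that a call needs. An unadjusted edgeR p below 0.05 was found for this gene at 0 hpf, 2 at 3.3 hpf and 1 of the 13 tested at 24 hpf. Of all tested genes 2977 of 16489, 2938 of 16897 and 1344 of 18806 had one at these stages. The neighbours' log2 fold changes lay between -0.75 and 0.44 at 0 hpf and between -0.53 and 0.79 at 3.3 hpf. The nearest tested neighbours were cyldl (-0.22) and POMGNT1 (-0.10) for ghrhrb, DDX28 (-0.059) for galr1b, and mfsd10 (0.44) and malt1 (0.14) for prlrb, all at 0 hpf.

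Markers of other tissues were read beside the early values. The summed level of 10 follicle cell marker genes ranged from 181 to 401 CPM in wild type and from 171 to 427 CPM in mutants at 0 hpf, and 1 of the 10 had no count in wild type. At 3.3 hpf the medians of this sum were 279 CPM in wild type and 137 CPM in mutants. A sum does not show its single genes: at 0 hpf the 3 tested ones had log2 fold changes of 1.93 (gsdf), 1.38 (FOXL2) and -0.035 (CYP11A1). The sum of 11 markers of later embryonic tissues had a higher median in mutants at 0 hpf, with overlapping ranges. It ranged from 8.71 through a median of 9.59 to 24.3 CPM in wild type and from 10.7 through 24.8 to 36.5 CPM in mutants. At 3.3 hpf its medians were 13.2 and 15.5 CPM, and every library at 24 hpf had 11287 CPM or more. The sum of 7 pituitary markers, the organ in which ghrhrb would be sought, had medians of 0.494 CPM in wild type and 0.841 CPM in mutants and was at most 1.06 CPM in any library at 0 hpf, and 2 of the 7 had no count in wild type. The sum of 6 oocyte markers was 1992 to 2384 CPM in wild type and 1491 to 2281 CPM in mutants at 0 hpf. The ranges of the genotypes overlapped for each of these lists, and no gene of them was called by edgeR at any stage. At 0 hpf 1 later embryo marker and 1 oocyte marker had an unadjusted edgeR p below 0.05, at 3.3 hpf 1 follicle cell marker and 1 later embryo marker did, and at 24 hpf 1 follicle cell marker did. Over all tested genes, 2977 of 16489, 2938 of 16897 and 1344 of 18806 had such a p at 0, 3.3 and 24 hpf. DESeq2 called 1 later embryo marker at 0 hpf and 2 at 3.3 hpf. The part of such cells in the receptor values beyond these sums was not tested.

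Genes with patterns most like each receptor gene were sought over the 36 libraries among 17675 genes with a mean of at least 1 CPM, by Pearson correlation of log2(CPM + 0.5). These correlations are a description, because libraries of a genotype and stage share their deviations and all values share the depth of their library. The genes most like prlrb were pkp2 (r = 0.950), GLTP (0.943), DSP (0.943), MXD4 (0.942) and si:dkey-202e22.2 (0.942). The proteins of pkp2 and DSP are parts of desmosomes, the junctions that hold epithelial cells together. DSP went from 1.30 CPM in wild type to 88.2 CPM in mutants at 0 hpf and stood at 223 and 272 CPM at 24 hpf.

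The genes most like galr1b were SLC25A1 (r = 0.906), RHBDF1 (0.902), pip5k1ba (0.899), hoxa13a (0.882) and PRKCH (0.882). As with galr1b, each was higher in mutants at 0 and 3.3 hpf than in wild type at 24 hpf. They were picked for likeness to galr1b over these same libraries, so this shared order is a description. The homeobox gene hoxa13a, of the group that patterns the posterior body, stood at 0.769 CPM in wild type and 14.0 CPM in mutants at 0 hpf. The genes most like ghrhrb were RASGEF1B (0.885), btr02 (0.872), dzank1 (0.869), DYRK4 (0.868) and zgc:174888 (0.868). Among the receptor genes, r was 0.826 between ghrhrb and galr1b, 0.808 between ghrhrb and prlrb, and 0.781 between galr1b and prlrb. The genes named as most alike were picked for the highest r, so an r below theirs sets no gene apart. Among the candidates and the receptor genes themselves, galr1b ranked 25 and prlrb 45 by likeness to ghrhrb. By likeness to galr1b, ghrhrb ranked 40 and prlrb 93, and by likeness to prlrb, ghrhrb ranked 302 and galr1b 408.

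**Figure D4:**
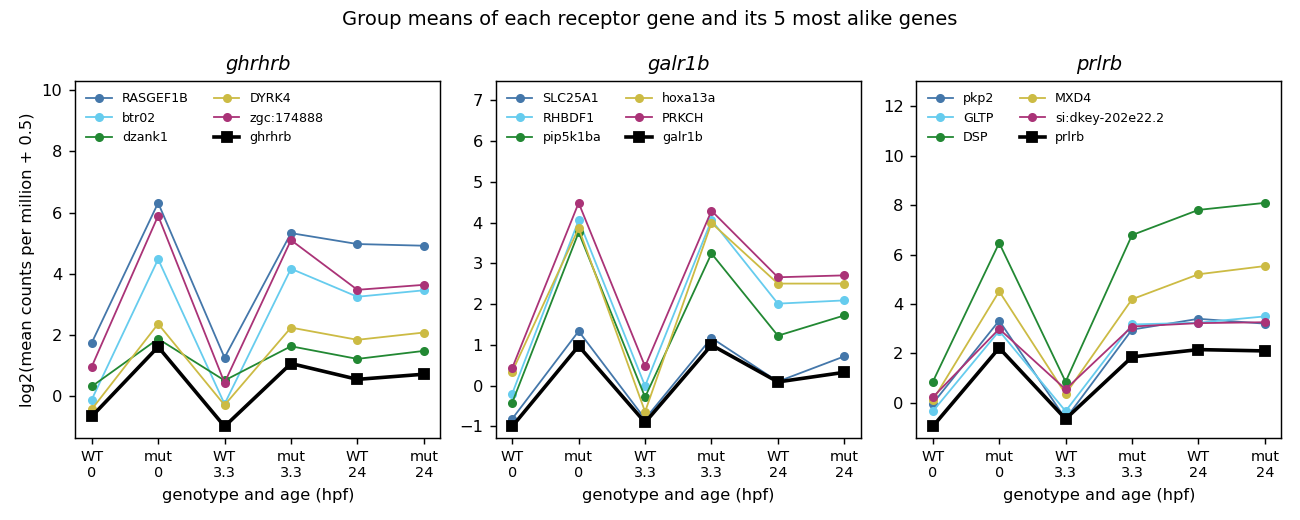
Group means of ghrhrb, galr1b and prlrb (black squares) and of the 5 genes most like each (coloured lines), as log2(mean CPM + 0.5), in wild-type (WT) and MZezh2 mutant (mut) embryos at 0, 3.3 and 24 hpf. The lines next to galr1b fall from the early mutant groups to 24 hpf, and those next to prlrb stay level or rise.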

How the data were processed

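The authors mapped RNA-seq reads to GRCz10 with STAR, version 2.5.2b per the submitters' processing notes, and deposited its counts of uniquely mapped reads per Ensembl gene, unstranded and for each strand, with no normalization. The strand setting behind the columns is not given in the sources used here; the reverse-strand column held 81.2 to 98.5% of stranded counts and was read as sense. Reads outside named genes were 24.8 to 79.1% of a library and stayed out of library sizes.

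Unstranded counts were tested per stage with edgeR 4.0.16 (R 4.3.3; filterByExpr, TMM, quasi-likelihood, genotype alone, Benjamini-Hochberg adjustment over all tested genes); DESeq2 1.42.0 was an alternative. CPM were scaled by TMM over all 36 libraries. The code was tested on simulated data. Intervals and limits of 3 counts cover counting error only. Permutation tests used scipy on log2(CPM + 0.5). Symbols matched 26433 of 32266 identifiers, some in capitals. Of 106 listed symbols, 9 were unmatched, galn among them. The named genes were the 3 receptor genes, their copies, genes of the ligand list, listed genes called at a stage, the 5 genes most alike to each, and ezh2. Some listed genes that were not called are named beside them. Members and lists were chosen with earlier results of these data known.

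At 24 hpf, 2 libraries per genotype came from another kit, and the sources do not say which. Replicates 1 and 2 had 4.80 to 15.9% unmapped reads and the others 12.1 to 75.2%, so these numbers were tried as a batch. ChIP-seq peaks were not used here, as no GRCz10 gene annotation was at hand to join them to genes, and no sequences are printed. Alternatives were other size factors, no filter, other strands, a replicate block, the batch, 1 fit over all stages, and leaving out libraries.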

Additional observations from a re-analysis of the deposited data

Results flagged for a closer look

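In 16 group and gene combinations with varying values, 4 had a library set apart from the rest of its group by Dixon's gap ratio, where chance sets apart about 1 in 20 for measured levels, a rate that does not hold for counts near 0. In mutants at 3.3 hpf, ghrhrb stood at 4.91 CPM in replicate 2, with 109 counts, and at 1.74 CPM in the next library. The other 3 were wild-type libraries with a handful of counts, and where a single library of a group has counts the ratio is fixed at its maximum: galr1b at 0.173 CPM in replicate 3 at 3.3 hpf (2 counts, both antisense), prlrb at 0.0863 CPM in replicate 2 at 0 hpf (2 counts) and prlrb at 0.346 CPM in replicate 3 at 3.3 hpf (4 counts).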

How the results depend on the processing

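In 122 refits of the early values the log2 fold changes, all positive, ran from 3.57 to 8.90. The genes were picked on this contrast and their genotypes did not overlap, so the sign is no support. The sense-strand refit of ghrhrb at 3.3 hpf fell below the filter and gave no value. So did the antisense refits of all 3 genes at both early stages and that of prlrb at 24 hpf. At 24 hpf there were 69 alternative values, 66 of them refits and the rest the permutation test of each gene. None of the refits gave a call. The larger moves were these, for fold changes by more than the spread of the mutant libraries or in sign. Numbers of called genes have no such spread and are given beside them. Leaving out replicates 1 and 2, or fitting them as a batch, was planned at 24 hpf only. Without replicates 1 and 2, the log2 fold changes at 0 hpf were 3.57 (ghrhrb), 6.85 (galr1b) and 8.27 (prlrb), and at 3.3 hpf 6.63, 4.22 and 3.61, with 598 genes called at 0 hpf and 29 at 24 hpf and 3 related genes at 0 hpf. DESeq2 gave 6.78 for ghrhrb at 3.3 hpf and 6.83 for galr1b at 0 hpf, and called 2152, 1966 and 136 genes and 10 and 14 related genes at 0 and 3.3 hpf, against 1027, 1024 and 61 genes and 5 and 8 related genes by edgeR. The sense-strand column gave 7.39 for galr1b at 3.3 hpf, the 2 wild-type counts being antisense. The antisense column, with few genes to test, called 5, 7 and 0 genes, and 0 related genes at 0 and at 3.3 hpf. One fit over all stages called 2604, 2141 and 19 genes and 15 related genes at each early stage. Without the mutant libraries above 30% antisense ezh2, an alternative chosen after seeing the data, 30 genes were called at 24 hpf and 4 related genes at 3.3 hpf, and at 24 hpf ghrhrb turned to -0.17 and prlrb to 0.12. The cause of the other moves was not tested.

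Leaving out 1 library at a time gave 4.03 to 4.82 for ghrhrb, 7.22 to 7.61 for galr1b and 6.75 to 8.90 for prlrb at 0 hpf. At 3.3 hpf it gave 6.86 to 7.80 for ghrhrb, 4.85 to 7.52 for galr1b and 4.25 to 5.27 for prlrb. Without mutant replicate 1, 2, 5, 6 or 7 ghrhrb fell below the filter at 3.3 hpf and is given from an unfiltered fit, chosen after seeing the data, with the lowest value without replicate 2. The pooled bounds ranged over 22.2-fold to 46.2-fold for ghrhrb at 3.3 hpf and 27.1-fold to 44.4-fold for galr1b at 0 hpf. At 24 hpf leaving out 1 library gave 0.11 to 0.50, 0.18 to 0.52 and -0.16 to 0.077, where prlrb was positive without wild-type replicate 3 (0.077) and without mutant replicate 7 (0.038). Counts of called genes ranged over 708 to 1007, 811 to 1070 and 44 to 68, and of related genes over 4 to 6, 7 to 9 and 0 to 0. By Spearman correlation, 3, 2 and 1 of the 5 genes most like ghrhrb, galr1b and prlrb were the same.

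With group means taken out, same-numbered libraries of the genotypes correlated at 0.069 to 0.60, 0.019 to 0.58 and -0.021 to 0.77 across genes at 0, 3.3 and 24 hpf. At 24 hpf replicate 4 gave -0.021 and every other number 0.42 or more. Differently numbered libraries were not compared, so these values cannot decide whether the numbers pair the libraries. The main fits left the numbers out. A replicate block called 96 genes at 24 hpf, against 61 in the main fit, and put prlrb there at 0.075 with no call. At the early stages wild-type levels rest on 0 to 8 counts per gene, which sets the width of the intervals.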
